A study of Homo sapiens with 6 samples.

Results

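The metallothionein genes MT1E, MT1F, MT1G, MT1M, MT1X, MT2A and MT3, the zinc sensor gene MTF1 and the zinc exporter gene SLC30A1 were examined in LN229 cells that overexpress HSD52, against LN229 cells labelled as wild type (called control). The genes were picked by name, with the difference between these groups already known, so their values in that comparison are given as a description and without a test. All 9 were found among the 58735 genes of the deposited count table. LN229 is an established human glioblastoma line and HSD52 is a long non-coding RNA gene. Each group had 3 libraries, sequenced from poly-A selected RNA. The labels give the cells' genotype and no other treatment, and they state neither the vector, nor whether the HSD52_OE cells are 1 clone, nor if each library had a culture of its own. A p-value here reflects how much the libraries varied, and that variation may be technical.

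Metallothioneins are small cysteine-rich proteins that bind zinc and copper and, when present, cadmium. Free zinc activates the zinc-finger factor MTF1, which binds metal response elements and induces the metallothionein genes and SLC30A1, whose product exports zinc across the plasma membrane. MT2A and most MT1 genes are widely inducible by metals, glucocorticoids and oxidative stress, while MT3 was first described in brain as a growth inhibitory factor.

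Library totals ranged from 17777157 to 18917790 counts in HSD52_OE and from 18250494 to 18574853 in control. HSD52 had 1252, 1336 and 1327 counts in the HSD52_OE libraries, against 11, 7 and 12 in the control libraries, which fits the labels. Replicates differed more among control than among HSD52_OE libraries (chi-square per degree of freedom 2.23 to 3.51 in HSD52_OE and 15.1 to 18.6 in control). HSD52_OE libraries held counts in more genes (26359 to 26755 in HSD52_OE, against 22855 to 23545 in control), and 6 of 7 tested nuclear-retained or small-RNA host transcripts rose while 0 fell, with a summed level of 866 to 1120 CPM in HSD52_OE and 329 to 405 CPM in control. The glial and glioma marker list as a whole was expressed in both groups (summed level 4550 CPM in each HSD52_OE library and 4600 to 6000 CPM in control). Of its 12 genes 3 rose, 5 fell and 4 did not pass. TNC, VIM and NES were its most abundant genes in HSD52_OE (means of 1420, 1200 and 758 CPM). SOX9 had 2, 3 and 0 counts in HSD52_OE, against 11, 33 and 14 in control. Of 8 fibroblast markers 1 rose and 7 fell, and their summed level was 45.8 to 48.2 CPM in HSD52_OE and 114 to 207 CPM in control. Over all genes tested, 25.0% rose and 25.6% fell. The shares were 85.7% and 0% for nuclear-retained or host transcripts, 25.0% and 41.7% for glial markers and 12.5% and 87.5% for fibroblast markers. Myeloid and lymphocyte markers summed to at most 3.10 and 1.56 CPM in HSD52_OE and 2.79 and 1.23 CPM in control, with AIF1, CD3E and CD2 at 0 counts. Endothelial markers summed to 3.50 to 5.44 CPM in HSD52_OE and 3.09 to 5.07 CPM in control. The part of these differences in the results given here was not tested.

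The region just before the start of a metallothionein gene carries several metal response elements, the sites through which MTF1 acts, so these regions are shown for the most abundant metallothionein gene (MT2A), for a detected one of lower level (MT1X), for a silent one (MT1H) and for the exporter SLC30A1. Each runs 5′ to 3′ over the 250 bases before the RefSeq start (GRCh38.p14), with matches to the metal response element core (TGCACNC or TGCGCNC, either strand, overlapping matches counted) in capitals. MT2A lies at chr16:56608334-56608583 (plus strand), MT1X at chr16:56682220-56682469 (plus), MT1H at chr16:56669564-56669813 (plus) and SLC30A1 at chr1:211579162-211579411 (minus).
MT2A: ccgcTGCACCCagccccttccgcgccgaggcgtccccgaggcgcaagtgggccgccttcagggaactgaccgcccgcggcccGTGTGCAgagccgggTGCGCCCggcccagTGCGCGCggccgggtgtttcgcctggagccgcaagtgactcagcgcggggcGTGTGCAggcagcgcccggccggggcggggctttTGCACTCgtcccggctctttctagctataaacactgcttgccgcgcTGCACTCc
MT1X: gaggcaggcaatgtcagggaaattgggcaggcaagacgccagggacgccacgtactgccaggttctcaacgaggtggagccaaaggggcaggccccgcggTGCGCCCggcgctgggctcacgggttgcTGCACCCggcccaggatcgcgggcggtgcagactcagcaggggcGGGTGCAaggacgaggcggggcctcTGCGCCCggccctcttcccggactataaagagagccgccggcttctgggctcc
MT1H: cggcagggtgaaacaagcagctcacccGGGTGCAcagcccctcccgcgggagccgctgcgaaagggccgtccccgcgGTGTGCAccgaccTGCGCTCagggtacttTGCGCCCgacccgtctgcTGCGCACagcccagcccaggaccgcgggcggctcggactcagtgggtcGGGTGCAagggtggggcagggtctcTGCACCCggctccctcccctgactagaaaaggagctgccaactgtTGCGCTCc
SLC30A1: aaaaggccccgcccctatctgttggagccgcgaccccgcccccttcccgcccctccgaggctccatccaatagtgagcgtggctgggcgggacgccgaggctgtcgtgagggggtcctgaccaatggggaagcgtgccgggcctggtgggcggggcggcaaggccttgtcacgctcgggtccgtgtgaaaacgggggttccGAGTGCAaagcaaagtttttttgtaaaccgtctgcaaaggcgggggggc

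MT2A held 7 matches, MT1X 4, MT1H 8 and SLC30A1 1, and the 250 bases before MTF1 held 0. Among 35116 RefSeq promoters of the same length, 24.8% held at least 1 match, 1.58% at least 3 and 0.12% at least 5. MT2A also had 1 match to the AP-1 site TGACTCA, which 4.2% of promoters held, and MT1X, MT1H, SLC30A1 and MTF1 had 0. RefSeq promoters were found for 4 of the 9 genes (MT2A, MT1X, SLC30A1 and MTF1). MT1E was not among them, so no matches were counted for it. The RefSeq start of MT2A lies 385 bases inside the gene as the count table places it, and that of SLC30A1 lies 419 bases outside. For both genes the bases just before the start in the count table were thus not scanned. Their matches belong to the RefSeq windows alone. MT1H, with the most matches of those shown, had 0 counts in every library.

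MT2A, the main inducible metallothionein of many human cells, carried almost the whole family signal and was lower in HSD52_OE. It lies on chromosome 16 (ENSG00000125148, 56608199 to 56609497, plus strand, hg38). Its level, as TMM-scaled CPM (counts divided by the scaled library total), was 271, 252 and 285 in the HSD52_OE libraries, against 446, 561 and 480 in the control libraries. Every HSD52_OE library was below every control library, and control replicate 2 was the highest. The means were 270 ± 16.6 CPM in HSD52_OE and 495 ± 59.2 CPM in control (SD, n = 3), a log2 fold change of -0.88 ± 0.10 (SE). The level was thus lower by a fold of 1.84, with a counting interval of 1.80 to 1.87 (exact binomial 95% interval on summed counts, counting error only).

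MT1E, an MT1 isoform gene, was nearly absent from HSD52_OE. It lies on the plus strand of chromosome 16 (ENSG00000169715, 56625475 to 56627112). It had 2, 4 and 1 counts in the HSD52_OE libraries, against 106, 109 and 106 in the control libraries. The control libraries were alike, and each HSD52_OE count was near the limit of detection. The means were 0.122 ± 0.0796 CPM in HSD52_OE and 6.09 ± 0.181 CPM in control (SD, n = 3). The summed counts, 7 against 321, gave a ratio of HSD52_OE to control of 0.0200, with a counting interval of 0.00797 to 0.0417. The fitted log2 fold change was -5.57 ± 0.33. Leaving out HSD52_OE replicate 2 gave -6.16, while leaving out HSD52_OE replicate 3 gave -5.21. The gene met the expression filter of the fit through its control counts alone. In bulk libraries, fewer cells that express the gene and less RNA per cell cannot be told apart.

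MT1X, the metallothionein nearest the far end of the cluster, did not separate the groups. It lies on the plus strand of chromosome 16 (ENSG00000187193, 56682424 to 56684196). Its counts were 74, 66 and 107 in HSD52_OE libraries and 97, 119 and 81 in control libraries. HSD52_OE replicate 3 was above control replicate 3, so the groups overlapped. The level was 4.28 ± 1.03 CPM in HSD52_OE and 5.64 ± 1.14 CPM in control (SD, n = 3), and the log2 fold change was -0.39 ± 0.21. In the GENCODE 29 annotation 18.1% of its exonic bases also belong to the exons of AC026461.1, which had 0 counts in each library, so the MT1X counts are uncertain.

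The other metallothionein genes examined, MT1F, MT1G, MT1M and MT3, had 0 counts in all 6 libraries. With 3 counts as the limit that a count of 0 allows, their level was at most 0.152 to 0.161 CPM in single HSD52_OE libraries, 0.167 to 0.175 CPM in single control libraries and 0.0272 CPM over all 6. Among 19951 protein-coding genes, 14.2% had 0 counts in every library. Most of the annotated transcript sequence of these genes is distinct from transcripts of other genes. Of the 100-base stretches in their GENCODE 29 transcripts, 100% occurred in no transcript of another gene for MT1E, MT1F, MT1G, MT1M, MT2A and MT3, and 88.7% for MT1X. Stretches were pooled over all transcripts of a gene, with introns where a transcript keeps them. The rest of the genome was not searched, so the shares may be lower for reads from the spliced RNA. For 50-base stretches the share ran from 81.7% for MT1X to 100% for MT3. How reads shared among near copies were counted is not given, so values of single family members are uncertain to that extent.

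**Figure D1:**
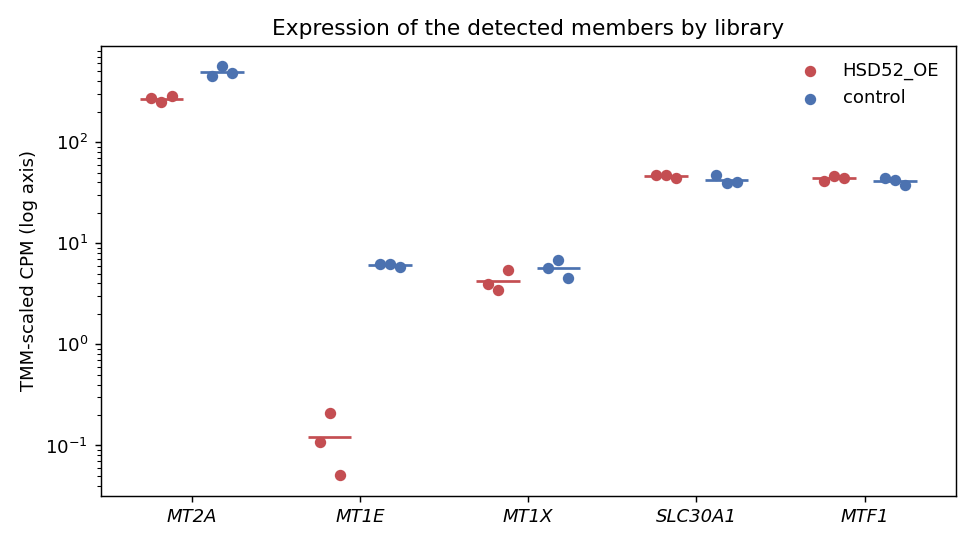
TMM-scaled CPM (log axis) of the 5 detected genes in each library, HSD52_OE in red and control in blue, with a bar at each group mean. MT2A and MT1E are lower in every HSD52_OE library, while MT1X, SLC30A1 and MTF1 overlap between the groups; MT1F, MT1G, MT1M and MT3 had 0 counts and are not drawn.

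Most genes of the cluster had no counts. Besides the 7 metallothionein genes named so far, a further 14 listed genes and pseudogenes of the family were found in the table, which gave 21 in all. The cluster on chromosome 16 held 16 of these over 119 kb, 11 of them protein-coding. Of those 11, 3 had counts (MT2A, MT1E and MT1X) and 8 had none, among them MT1A, MT1B, MT1H and MT4. All 5 pseudogenes in the cluster were also at 0. From MT1M to MT1IP, the genes between MT1E and MT1X, 10 adjacent genes had 0 counts. Outside the cluster, MT1XP1 had 3 counts in HSD52_OE and 8 in control, MT2P1 had 7 and 2, MT1HL1 had 1 and 0, and 2 others had none. None of these 14 had enough counts to be tested.

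Together the family took 0.0266% to 0.0303% of counts in HSD52_OE libraries and 0.0429% to 0.0543% in control libraries. MT2A made up 98.1% to 98.5% of the family's counts in HSD52_OE and 97.4% to 97.8% in control. The family total therefore followed MT2A, and MT1E made little difference to it.

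The zinc sensor and the exporter did not separate the groups. MTF1 (ENSG00000188786, chromosome 1, 37809567 to 37859620, minus strand) had 41.4, 46.6 and 43.8 CPM in HSD52_OE, against 43.8, 42.6 and 37.3 CPM in control. SLC30A1 (ENSG00000170385, chromosome 1, 211571568 to 211578742, minus strand) had 47.7, 47.2 and 44.6 CPM in HSD52_OE, against 46.9, 39.0 and 40.7 CPM in control. The groups overlapped for both, with control replicate 1 as the highest control library of each. The log2 fold changes were 0.09 ± 0.09 for MTF1 and 0.14 ± 0.09 for SLC30A1. Scaling by library totals alone shifted the median over all genes upward by 0.12 (log2), and on that scale MTF1 had 0.22 and SLC30A1 0.26.

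Of the 9 genes, 5 had enough counts to enter the fit over all genes. Over all 16322 genes tested, 50.6% were past an edgeR adjusted p of 0.05, 25.0% higher and 25.6% lower. A share of 3.49% was past it and lower by a fold of at least 2. The groups did not overlap for 2 of the 5 genes, MT2A and MT1E, against 58.9% of all genes tested. Nothing is read from this because the comparison served to choose the genes. Library totals alone gave 5337 higher and 2933 lower genes, in place of 4086 and 4173.

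Per kilobase of exon the order of levels changed between the groups. In HSD52_OE, MT2A was highest at 194 to 220 CPM per kb, followed by SLC30A1 at 8.15 to 8.71, MTF1 at 5.16 to 5.81, MT1X at 1.94 to 3.06 and MT1E at 0.0483 to 0.198. In control, MT2A had 343 to 432 CPM per kb, SLC30A1 7.12 to 8.57, MT1E 5.59 to 5.90, MTF1 4.65 to 5.46 and MT1X 2.54 to 3.82. MT1E thus stood between SLC30A1 and MTF1 in control and last in HSD52_OE. No 2 neighbours in either order overlapped over the libraries. The lengths join the exons of all transcripts. For MT2A and MT1X they cover 100% of the gene span, introns of the coding transcript included, so levels per kb of these genes are understated. For MT1E they join 3 transcripts and cover 64.2% of the span, so its level per kb may be understated too. The place of MT1E in the control order rests on these lengths.

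The neighbours of the cluster were tested, since they played no part in the choice of genes. Of 38 genes whose starts lay within 500 kb of the 7 metallothioneins, 14 had 0 counts and 11 could be tested, of which 2 rose, 6 fell and 3 did not pass (median -0.29 on the log2 scale, against 0.01 over all genes tested). That is 18.2% higher and 54.5% lower, against 25.0% and 25.6% of all genes. CPNE2, a copine gene, fell to 28.7 ± 1.26 CPM in HSD52_OE, against 45.9 ± 0.542 CPM in control (log2 fold change -0.67 ± 0.09, edgeR quasi-likelihood adjusted p = 1.75e-05). GNAO1, a G protein alpha subunit gene, fell by 0.83 ± 0.13 and the nucleoporin gene NUP93 by 0.41 ± 0.08 on the log2 scale (edgeR adjusted p = 1.08e-04 and 7.81e-04). These 3 were lower in all 13 alternatives, and with library totals alone 4 neighbours rose and 4 fell. BBS2, the nearest tested gene on the MT2A side, had 36.5 ± 1.37 CPM in HSD52_OE and 33.4 ± 1.62 CPM in control (edgeR adjusted p = 0.253). AC009090.6, which rose, overlaps FAM192A and is uncertain without strand.

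**Figure D2:**
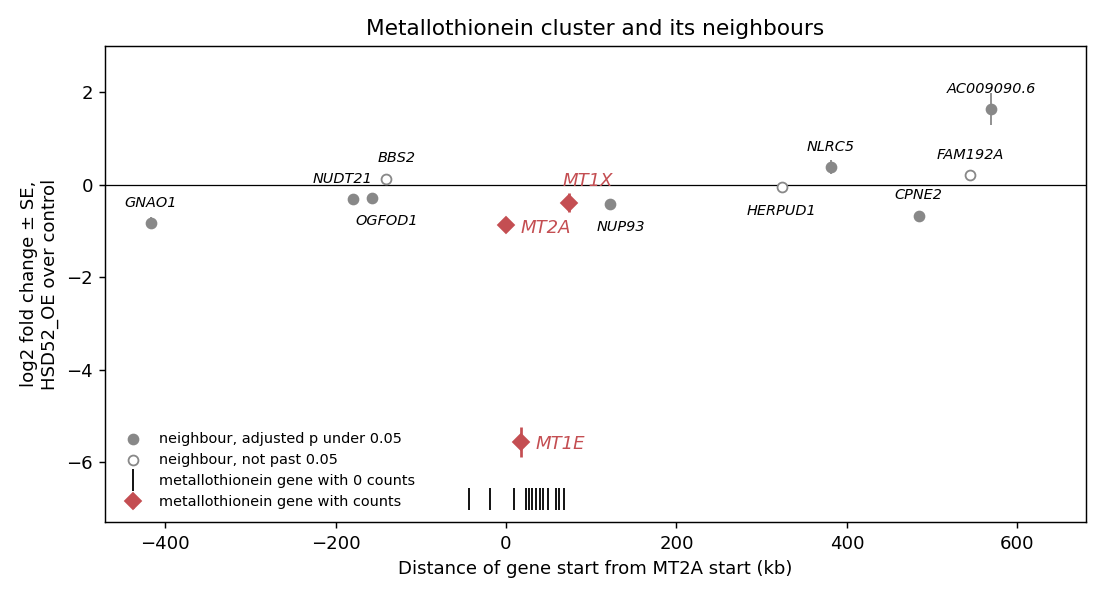
Log2 fold change (HSD52_OE over control, bars are SE) by distance of each gene's start from that of MT2A in kb, for metallothionein genes with counts (red diamonds) and tested neighbours (grey, filled where the adjusted p was under 0.05). MT1E stands at -5.57, while the tested neighbours drawn, all but 1, lie between -0.83 and 1.64; black ticks mark the 13 cluster metallothionein genes and pseudogenes with 0 counts.

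Zinc importers of the SLC39 (ZIP) family, which bring zinc into the cytosol, fell more often than they rose. Of 14 listed, 11 were tested, of which 0 rose, 7 fell and 4 did not pass, with a median log2 fold change of -0.33 against 0.01 over all genes, where 25.0% of genes rose and 25.6% fell. SLC39A14, a plasma membrane carrier of zinc, iron and manganese, had 1776, 1870 and 2000 counts in HSD52_OE, against 3060, 2447 and 2455 in control. Each HSD52_OE library was below each control library, a log2 fold change of -0.63 ± 0.10 (adjusted p = 1.16e-04, edgeR quasi-likelihood test). SLC39A3, another plasma membrane importer, fell to 30.7 ± 1.52 CPM in HSD52_OE, against 45.5 ± 6.81 CPM in control (edgeR adjusted p = 5.44e-04).

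SLC39A10, which MTF1 is reported to repress in mouse and zebrafish, was also lower, at 27.3 ± 1.15 CPM in HSD52_OE and 36.7 ± 5.14 CPM in control (edgeR adjusted p = 0.00436). SLC39A8, a carrier of zinc and manganese, had 24.8 ± 0.838 CPM in HSD52_OE and 31.1 ± 1.85 CPM in control (edgeR adjusted p = 0.00964). SLC39A14, SLC39A3 and SLC39A10 were called in all 13 alternatives. They were the importers still called with library totals alone, where SLC39A8 had an edgeR adjusted p of 0.100. Over importers and exporters together the count of lower genes, 7, became 4 when HSD52_OE replicate 1 was left out and 3 when HSD52_OE replicate 2 was.

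Zinc exporters of the SLC30 (ZnT) family other than SLC30A1 mostly did not pass the test. Of 9 listed, 8 were tested, of which 1 rose, 0 fell and 7 did not pass (median -0.10 on the log2 scale). Higher genes made up 12.5% and lower genes 0% of those tested, against 25.0% and 25.6% over all genes. SLC30A9, a transporter of mitochondria, had 2007, 1990 and 1988 counts in HSD52_OE, against 1336, 1370 and 1812 in control. Control replicate 3 lay nearest to the HSD52_OE libraries. The gene rose by 0.28 ± 0.10 on the log2 scale (edgeR adjusted p = 0.0260), and the call held in 8 of 13 alternatives. It was lost when any HSD52_OE library, control replicate 1 or control replicate 2 was left out, with an edgeR adjusted p of up to 0.120. SLC30A10, known mainly as a manganese exporter, had 4, 4 and 0 counts in HSD52_OE and 1, 6 and 2 in control. Whether importers and exporters differed from each other was not tested.

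**Figure D3:**
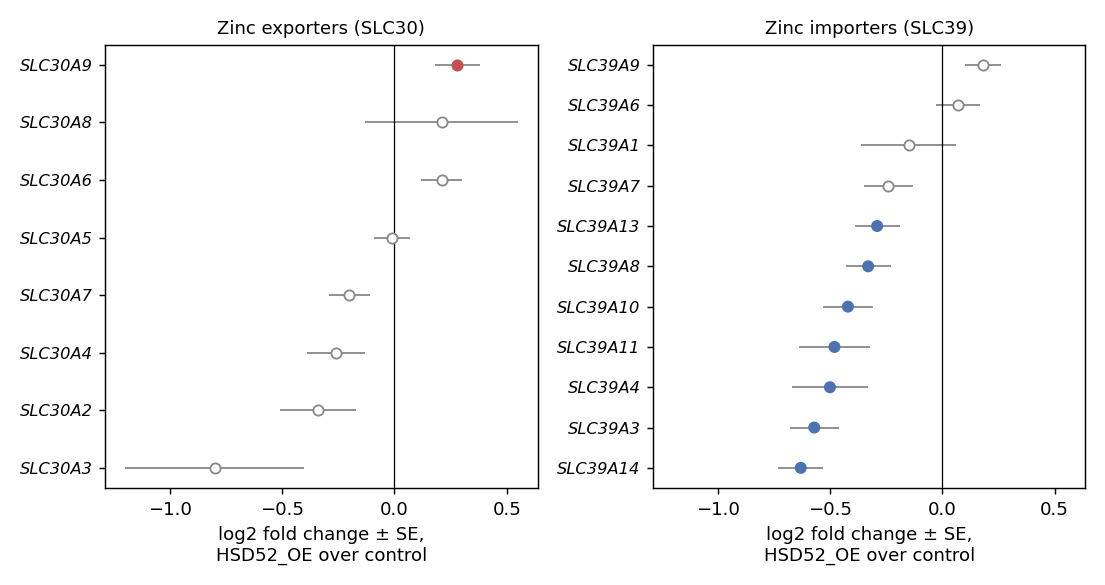
Log2 fold change (HSD52_OE over control, bars are SE) of the tested zinc exporters (left) and zinc importers (right), filled where the adjusted p was under 0.05 and blue where lower, red where higher. On the right 7 of 11 importers are filled and lower, and on the left SLC30A9 alone of 8 exporters is filled.

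Copper handling genes, listed because metallothioneins also bind copper, included both higher and lower genes. Of 18 listed, 17 matched a single row and 16 were tested, of which 2 rose, 5 fell and 9 did not pass (median log2 fold change -0.15). The shares, 12.5% higher and 31.2% lower, stand beside 25.0% and 25.6% of all genes, so calls in both directions are what genes at large show here. CP, the gene of the copper ferroxidase ceruloplasmin, had 6, 3 and 5 counts in HSD52_OE, against 110, 44 and 84 in control. Its groups did not overlap although the control libraries varied, and the log2 fold change was -4.18 ± 0.42 (edgeR adjusted p = 1.38e-06). ATP7B, a copper-exporting ATPase, fell to 5.46 ± 0.681 CPM in HSD52_OE, against 11.0 ± 1.84 CPM in control (1.17e-04). SCO1, a chaperone that delivers copper to cytochrome oxidase, rose to 74.1 ± 2.26 CPM in HSD52_OE, against 49.4 ± 2.71 CPM in control (3.91e-05). LOXL2, a copper-dependent lysyl oxidase, fell by 0.60 ± 0.15 on the log2 scale (edgeR adjusted p = 0.00459). The uptake transporter gene SLC31A1 had 65.2 ± 0.142 CPM in HSD52_OE and 70.8 ± 7.70 CPM in control (0.285). With library totals alone 5 of these genes rose and 3 fell.

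Other genes listed as reported MTF1 targets, several known from mouse, were more often lower than higher. Of 12 listed, 9 were tested, of which 1 rose, 6 fell and 2 did not pass (median log2 fold change -0.42). The shares were 11.1% higher and 66.7% lower, against 25.0% and 25.6% of all genes. The 6 include SLC39A10, which is also counted among the importers and which MTF1 is reported to repress. The selenoprotein gene SELENOW fell to 59.8 ± 3.30 CPM in HSD52_OE, against 97.1 ± 14.2 CPM in control (edgeR adjusted p = 5.14e-05). PGF, a growth factor of the VEGF family, fell by 0.64 ± 0.13 and NDRG1, which also responds to hypoxia, by 1.73 ± 0.10 on the log2 scale (edgeR adjusted p = 9.15e-04 and 4.60e-09). LGALS3, a galectin gene, rose to 64.9 ± 1.70 CPM in HSD52_OE, against 34.0 ± 0.399 CPM in control (4.21e-07). The link of LGALS3 and F3 to MTF1 is less certain. Without both, a choice made after the values were seen, 0 of 7 rose and 5 fell. LGALS3 was the sole gene of the list that rose, and the 5 still include SLC39A10.

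Genes of the glucocorticoid response were listed because glucocorticoids also induce MT2A. Of 16 listed, which include the receptor gene NR3C1 beside induced genes, 14 were tested, of which 3 rose, 5 fell and 6 did not pass (median log2 fold change -0.14). The shares, 21.4% higher and 35.7% lower, lie near the 25.0% and 25.6% of all genes and are no result about the list. CEBPD, a C/EBP transcription factor gene, fell to 10.8 ± 0.818 CPM in HSD52_OE, against 83.0 ± 12.7 CPM in control (edgeR adjusted p = 2.28e-10). The kinase gene SGK1 rose to 185 ± 9.63 CPM in HSD52_OE, against 66.9 ± 4.30 CPM in control (6.97e-09). DUSP1, a MAP kinase phosphatase gene, rose by 1.77 ± 0.19 on the log2 scale (edgeR adjusted p = 4.84e-05). FKBP5 and TSC22D3, induced genes of the list as SGK1 and DUSP1 are, were picked after their values were seen. They fell by 0.46 ± 0.10 and 0.51 ± 0.14 on the log2 scale (edgeR adjusted p = 0.00140 and 0.00711). PER1, KLF9 and ERRFI1, other induced genes of the list, did not pass (edgeR adjusted p = 0.286, 0.239 and 0.204). NR3C1, which is counted among the 6 that did not pass and is not itself an induced gene, had 53.5 ± 1.75 CPM in HSD52_OE and 50.6 ± 2.17 CPM in control (0.432).

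**Figure D4:**
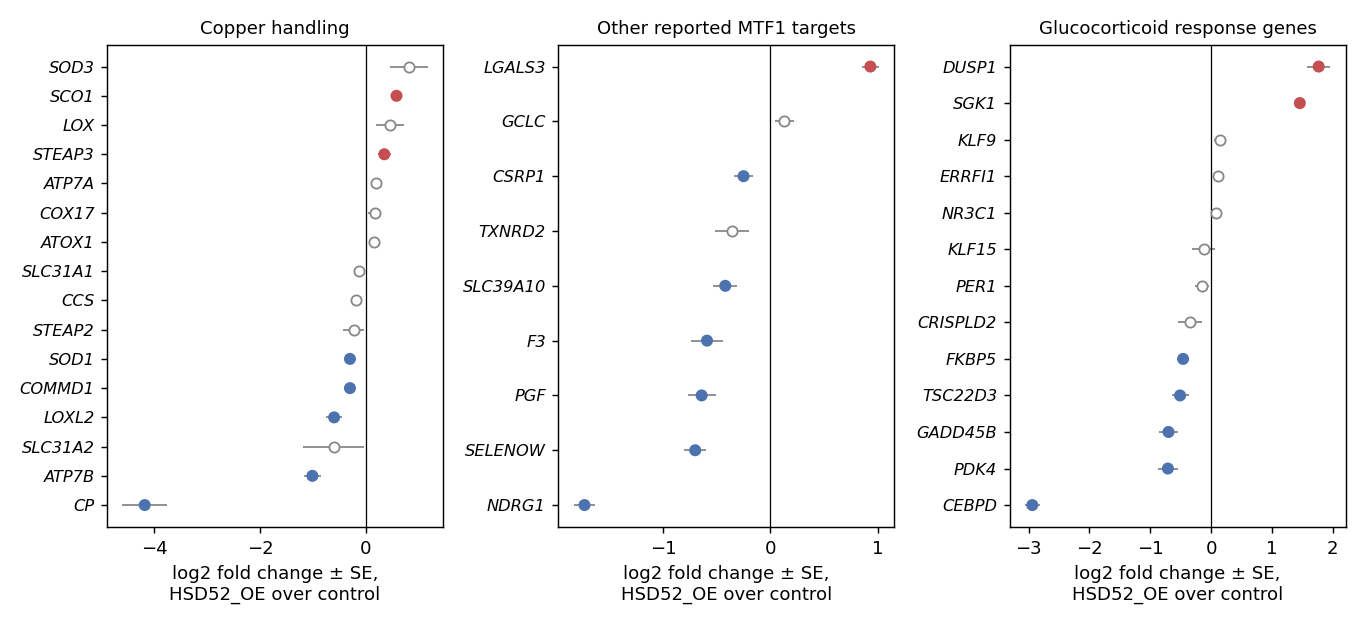
Log2 fold change (HSD52_OE over control, bars are SE) of the tested genes for copper handling (left), other reported MTF1 targets (middle) and the glucocorticoid response (right; induced genes and the receptor gene NR3C1), filled where the adjusted p was under 0.05 and blue where lower, red where higher. The 3 axes differ in range and 1 tested gene of the right panel is not drawn; CP at -4.18 and CEBPD at -2.94 stand lowest in their panels.

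The genes whose pattern over the 6 libraries was nearest to that of MT2A were PRR7, RPL13P12, FAM89A, ZNF358 and FNDC10, with root mean square differences of 0.0366 to 0.0527 in centred log2 CPM. RPL13P12 is a ribosomal protein pseudogene and may share reads with its parent gene. PRR7 had 62.0 to 69.7 CPM in HSD52_OE and 110 to 143 CPM in control. Nearest to MT1E were GPC4, PLBD1, PIEZO2, HYDIN and TGM2, at larger differences of 0.225 to 0.561. GPC4, a glypican gene, had 0.471 ± 0.160 CPM in HSD52_OE and 14.7 ± 3.79 CPM in control. Genes with a mean of at least 2 CPM outside the 9 were compared. None of them lay as near to MT1E as the 5 listed lay to MT2A. MT1E had 2, 4 and 1 counts in HSD52_OE, so its pattern there rests on few counts and on the prior count of 2. The 6 points of each pattern share the same 2 groups and libraries, so the likeness is a description.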

How the data were processed

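RNA sequencing libraries of 3 HSD52_OE and 3 control samples were analysed. The values deposited by the authors were raw, whole-number read counts per gene. Per the submitters' processing notes, CASAVA, HISAT2 2.0.5, featureCounts 1.5.0-p3 and hg38 were used; the sources used here do not give the annotation release or strand setting. Gene lengths in the deposited table equalled the joined exons of GENCODE 29 for 23 of 23 genes compared. The members and lists were chosen with earlier results of these data known.

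Genes kept by filterByExpr were scaled by TMM and fitted by the quasi-likelihood method of edgeR 4.0.16 (with limma 3.58.1 under R 4.3.3), robust and 2-sided with group as the sole term. P-values were adjusted by Benjamini-Hochberg over all 16322 genes; adjusted p-values here are from that fit unless another is named. The SE is the log2 fold change divided by the square root of F. CPM is TMM-scaled. Lists were described by counts of genes past 0.05 and medians, with no set test. Named genes were the members, up to 4 called genes per list with the smallest p, and the 5 genes nearest to MT2A and to MT1E (log2 CPM, prior count 2); others were chosen after their values were seen. Of the genes this rule names, 2 are not reported here. Alternatives were RLE factors, library totals, 2 other filters, DESeq2 1.42.0, limma-voom, a replicate block and each library left out. The steps were tested on simulated data. Promoter sequences are from RefSeq (GRCh38.p14).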

Additional observations from a re-analysis of the deposited data

How the results depend on the processing

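Among the members, MT2A kept its direction in 13 of 13 alternatives (log2 fold change -0.96 to -0.75), as did MT1E (-6.16 to -5.21), MT1X (-0.61 to -0.25), SLC30A1 (0.08 to 0.26) and MTF1 (0.02 to 0.22). Genes called over all genes ranged from 3373 to 5337 higher and from 2933 to 4616 lower. Library totals alone, which shift all genes upward, changed the lists most: higher and lower calls were 3 and 3 for zinc transporters, 5 and 3 for copper handling and 4 and 4 for neighbours of the cluster, and higher calls were 2 for MTF1 targets and 5 for glucocorticoid response genes. Requiring 1 CPM or more in 3 libraries gave 2 higher zinc transporters and 3 higher neighbours, and no filter beyond 1 count, like DESeq2, gave 1 higher neighbour. Without F3 and LGALS3, an alternative chosen after seeing the data, 0 MTF1 targets were higher. Leaving out 1 library gave 0 to 2 higher and 3 to 8 lower zinc transporters, 1 to 3 higher and 4 to 6 lower copper genes, 1 to 2 higher neighbours, and 3313 to 4529 lower and 3373 to 4303 higher genes over all; the higher copper genes became 1 without HSD52_OE replicate 2 or 3 or control replicate 3 and 3 without control replicate 1, and the higher neighbours became 1 without HSD52_OE replicate 1 or 3 or control replicate 1. The cause of these moves was not tested. With a replicate block 4210 genes were higher and 4226 lower, and zinc transporters stayed at 1 higher and 7 lower. Same-numbered libraries deviated together only weakly (correlations 0.03 to 0.04, and -0.02 to -0.01 for other pairs), so the numbers are not taken to pair them, although each library correlated best with its own number. Depth limits MT1E in HSD52_OE, with 7 counts in all, and the genes at 0.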
